A study of Mus musculus with 6 samples.

Results

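The genes described here are the cytosolic ribosomal protein genes, which encode the protein parts of the ribosomes that translate messenger RNA in the cytoplasm. They were found by symbol: Rps and Rpl followed by a number, the stalk genes Rplp0 to Rplp2, and Rpsa, without the S6 kinase genes and without pseudogenes. A gene counted where a probe set carried its symbol alone, and the probe set of highest mean log2 intensity over all arrays stood for it. This gave 70 genes of 17097 measured: 24 of the small subunit, 38 of the large subunit, 3 of the stalk, and 5 paralogs (Rpl22l1, Rps27l, Rpl7l1, Rpl39l and Rpl3l). The named paralog partners and core genes Rps27, Rpl5, Rpl10l, Rps4l and Rpl36al were not among the members and were not analysed here as such.

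Messenger RNA was measured on 6 oligonucleotide arrays of cultured T cells of female C57BL/6 mice, purified as CD4+ and CD25-. The BTNL2 wells were coated with anti-CD3 antibody at 2 µg/ml, B7-2.Fc at 3 µg/ml and BTNL2.Fc at 11 µg/ml, and the B7-2 wells with anti-CD3, B7-2.Fc and control IgG. The anti-CD3 wells carried anti-CD3 and control IgG alone. Anti-CD3 triggers the T cell receptor complex, B7-2 (CD86) is the ligand of the costimulatory receptor CD28, and BTNL2 is a butyrophilin-like protein related to B7 ligands. Every well also held TGF-beta (0.36 ng/ml) and IL-2 (10 ng/ml) during the 4 days of culture, so even the anti-CD3 wells were stimulated, and no unstimulated cells are in the comparisons. There were 2 arrays per coating. The labels call them duplicate cultures and do not say that they came from separate animals, so the p-values measure the spread between these cultures. The labels also differ on the source, naming spleen in one place and spleen with lymph nodes in another.

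A ribosome has a small subunit, which reads the messenger RNA, and a large subunit, which joins the amino acids. Each ribosomal protein is made in the cytoplasm, imported into the nucleolus and assembled there on ribosomal RNA transcribed by RNA polymerase I, with the help of assembly and export factors. The messenger RNAs of most of these proteins begin with a C followed by a run of pyrimidines, the terminal oligopyrimidine or TOP tract, through which mTORC1 and Larp1 control their translation. T cells that leave rest raise ribosome production, and part of that control acts on translation, which an array of messenger RNA levels does not measure.

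Promoter sequences show the start regions of core genes and of the paralogs whose levels differed between coatings. RefSeq start regions of build GRCm38.p6 were matched for 56 of the 70 genes. The windows are those of the core genes Rps6, Rplp2 and Rpl22 and of the paralogs Rpl22l1, Rps27l, Rpl7l1 and Rpl39l: Rps6 at chr4:86857348-86857407 (minus strand), Rplp2 at chr7:141447611-141447670 (plus strand), Rpl22 at chr4:152325686-152325745 (plus strand), Rpl22l1 at chr3:28805468-28805527 (plus strand), Rps27l at chr9:66946046-66946105 (plus strand), Rpl7l1 at chr17:46782637-46782696 (minus strand) and Rpl39l at chr16:10170188-10170247 (plus strand). Each runs from 40 bases before the annotated start to 20 bases after it, 5′ to 3′ on the gene's strand. Capitals mark a TOP run, here a C within 5 bases of the annotated start that is followed by at least 4 pyrimidines.
Rps6: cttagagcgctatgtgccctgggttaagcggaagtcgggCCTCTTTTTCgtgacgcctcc
Rplp2: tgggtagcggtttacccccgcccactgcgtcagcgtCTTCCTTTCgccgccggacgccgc
Rpl22: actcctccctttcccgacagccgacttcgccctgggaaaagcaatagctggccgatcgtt
Rpl22l1: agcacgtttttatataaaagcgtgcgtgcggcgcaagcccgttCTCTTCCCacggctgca
Rps27l: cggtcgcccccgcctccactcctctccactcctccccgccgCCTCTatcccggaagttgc
Rpl7l1: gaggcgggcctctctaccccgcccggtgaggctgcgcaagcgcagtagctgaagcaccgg
Rpl39l: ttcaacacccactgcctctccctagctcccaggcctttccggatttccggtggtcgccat
By this definition 25 of the 56 genes (44.6%) held a TOP run, against 21.7% of 69 mitochondrial ribosomal protein genes and 18.5% of 27025 promoters in the table. Only the first listed start of each gene was searched, though 9 of the members had several. A gene without a run here may therefore still have a TOP tract. Rps6 and Rplp2 held runs of 10 and 9 pyrimidines, Rpl22l1 one of 8 and Rps27l one of 5. Rpl22, Rpl7l1 and Rpl39l held none beginning within 5 bases of the start, though pyrimidine runs lie elsewhere in their windows. The ETS family motif CCGGAAG, searched on both strands of the 300 bases around the start, was present in 24 of the 56 genes (42.9%), in 36.2% of the mitochondrial ribosomal protein genes and in 9.12% of all promoters. The YY1 motif AAGATGG was present in 14.3% of the genes and 6.48% of all promoters, the E-box CACGTG in 8.93% and 7.24%, and the TATA box TATAAA in 10.7% and 14.2%. No motif contains another, though CCGGAAG can share its last 3 letters with AAGATGG, and all these matches are descriptions of letters, not of bound sites.

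Duplicate arrays correlated with r of 0.997 to 0.9976 over all genes measured, with 1 probe set per gene. Arrays of different coatings correlated with r of 0.9741 to 0.9871, so the coatings stood apart by more than the duplicates did. The marker genes of CD4 T cells summed to 12099 to 12143 in BTNL2 wells, 12584 to 12932 in B7-2 wells and 16402 to 16939 in anti-CD3 wells, with 6 of the 7 listed genes measured. These genes did not move together. Cd3d was higher in BTNL2 wells (4588 and 4284) than in B7-2 wells (4258 and 4073). Between these coatings Cd3e and Cd3g overlapped, and Cd4, Cd5 and Cd28 were lower in BTNL2 wells. Summed CD8 T and NK cell markers were 1436 to 1497 in BTNL2 wells, 249 to 257 in B7-2 wells and 576 to 619 in anti-CD3 wells, with all 6 measured. Among them Klrb1c read only 25.7 to 38.7 over all wells and Ncr1 only 4.75 to 6.62, near background. The highest of the 6, Cd8a, was at 987 and 924 in BTNL2 wells, 119 and 107 in B7-2 wells and 302 and 321 in anti-CD3 wells. B cell markers summed to 620 to 802, 307 to 333 and 596 to 637 in the same order of coatings, with 5 of 6 measured and Pax5 near background in every well, while myeloid markers (6 of 6 measured) summed to 79.6 to 92.0 and erythroid markers (2 of 4) to 17.6 to 22.4 over all wells. The CD4 T cell sums and the CD8 T and NK cell sums did not overlap between coatings, and the B cell sums were lower in B7-2 wells than in the other wells. Their part in the differences below was not tested. In such bulk cultures, fewer cells of a type and less RNA per cell cannot be told apart.

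On each array the ribosomal protein genes filled the top of the intensity range. For 63 of the 70 the mean log2 intensity was 12 or more (4096 on the linear scale), and these 63 lay in the top 1% of probe sets. Brightness depends on the probes as well as on the transcript, so it ranks no gene against another. Of the 63 probe sets, 30 carried the suffix letter a, 18 the letter x, 5 the letter s and 10 no letter. Whether these bright probe sets also read related transcripts was not tested. The median intensity of the 70 genes was 7140 and 7159 in BTNL2 wells, 7495 and 7348 in B7-2 wells, and 7487 and 7507 in anti-CD3 wells. The BTNL2 values lay below the others. After a further quantile normalization the median log2 change was -0.014 over B7-2 wells and -0.0062 over anti-CD3 wells. Between 38 and 40 of the 50 brightest genes on each array were ribosomal protein genes. The split at 12 was chosen after the values were seen: the dimmest of the 63 was Rps13 at a mean log2 of 12.33, and the brightest of the remaining 7 was Rpl22l1 at 11.89.

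**Figure D1:**
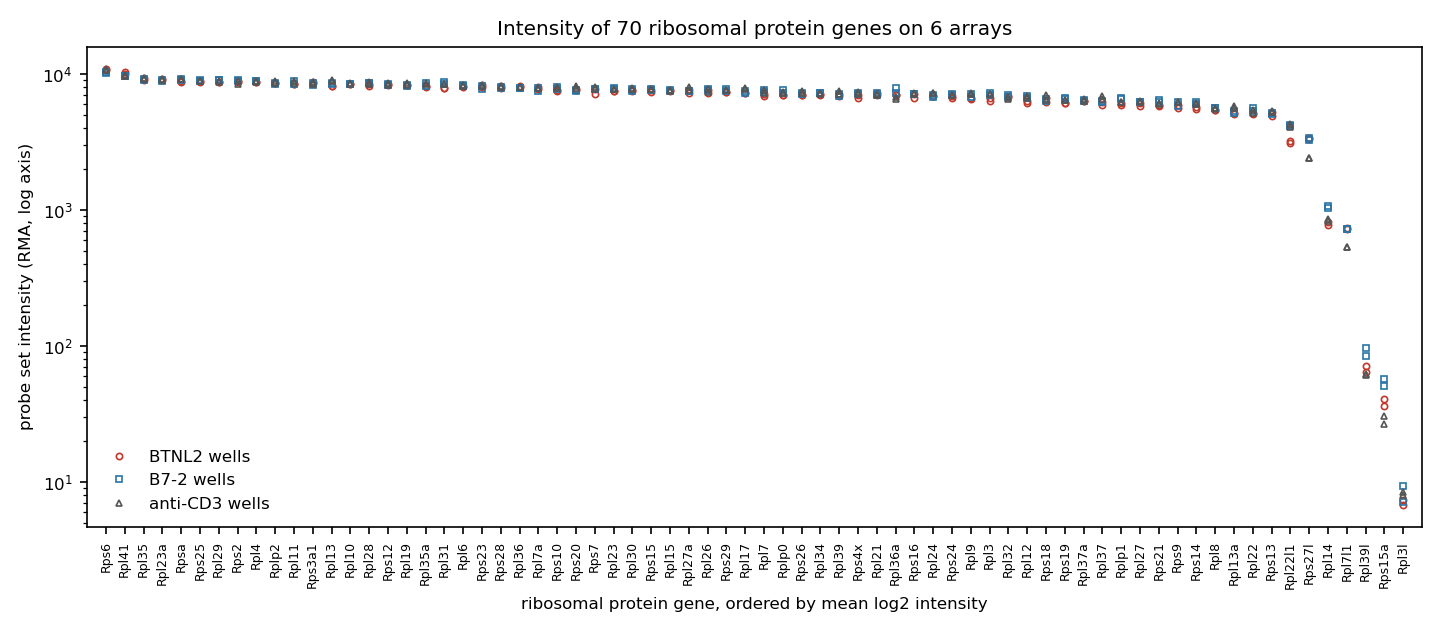
Probe set intensity of every ribosomal protein gene on the 6 arrays (log scale), with the genes ordered by mean level and the coatings marked by colour and shape. The 63 bright genes form a flat shelf with a range over the arrays of 1.02-fold to 1.205-fold, and the 7 dimmer genes spread below it.

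Of the 70 genes, 4 were lower and 0 were higher in BTNL2 wells than in B7-2 wells (limma, adjusted p under 0.05), which is 5.71% of them, against 20.4% of all genes (9.52% higher and 10.8% lower). Between B7-2 and anti-CD3 wells 5 were higher and 0 lower, 7.14% against 24.5% of all genes (11.2% higher and 13.3% lower). Between BTNL2 and anti-CD3 wells 3 were higher and 1 lower, 5.71% against 30.4% of all genes (14.2% higher and 16.2% lower). The genes called in these comparisons were Rpl22l1, Rps27l, Rpl7l1, Rpl39l, Rpl14 and Rps15a, and all of them are among the 7 dimmer genes. The comparisons share arrays, so their counts are not independent. The groups did not overlap for 45, 33 and 48 of the 70 genes in the 3 comparisons, against 58.9%, 60.1% and 63% of all genes. The median log2 change of the 70 was -0.040 for BTNL2 over B7-2, -0.010 for B7-2 over anti-CD3 and -0.049 for BTNL2 over anti-CD3, and the medians of all genes were -0.011, -0.0048 and -0.0046. The sign of the median for B7-2 over anti-CD3 turned under another scaling: it was 0.0085 with each array centred on its median and 0.0077 after a further quantile normalization.

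The 63 bright genes make up nearly all of the core ribosome, and none of them was called in any of the 3 comparisons by limma with its default variance prior, with 0 at an unadjusted p under 0.05 as well. Over the 6 arrays a bright gene's intensity ranged over 1.02-fold to 1.205-fold, with a median of 1.07-fold, and the spread between duplicates had a median SD of 0.028 on the log2 scale. The log2 changes lay between -0.14 and 0.08 for BTNL2 over B7-2, between -0.12 and 0.18 for B7-2 over anti-CD3, and between -0.17 and 0.08 for BTNL2 over anti-CD3. No 95% interval left out 0, and the intervals reached at most 1.26-fold, 1.31-fold and 1.29-fold in either direction. This bounds what the arrays could show rather than showing equality, and the intervals carry only the spread between arrays. For BTNL2 over B7-2, the 95th percentile of absolute log2 change was 0.28 among 188 genes of this brightness, members included. It was 1.49 among genes at a mean log2 of 6 to 8. Whether bright probe sets understate changes was not tested. With a variance prior that follows intensity, which gave bright genes a smaller SE, more were called: Rpl12, Rpl3, Rpl31, Rplp1, Rps14 and Rps19 lower in BTNL2 than in B7-2 wells, Rpl36a higher and Rpl13a lower in B7-2 than in anti-CD3 wells, and Rpl12, Rpl13, Rpl13a, Rpl17, Rpl3, Rpl37, Rpl9 and Rps14 lower in BTNL2 than in anti-CD3 wells. That prior also called more of all genes, 25.8%, 30% and 34.7% in the 3 comparisons. Of 125 other genes of the same brightness, the default prior called 6.4%, 11.2% and 19.2% in the 3 comparisons.

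**Figure D2:**
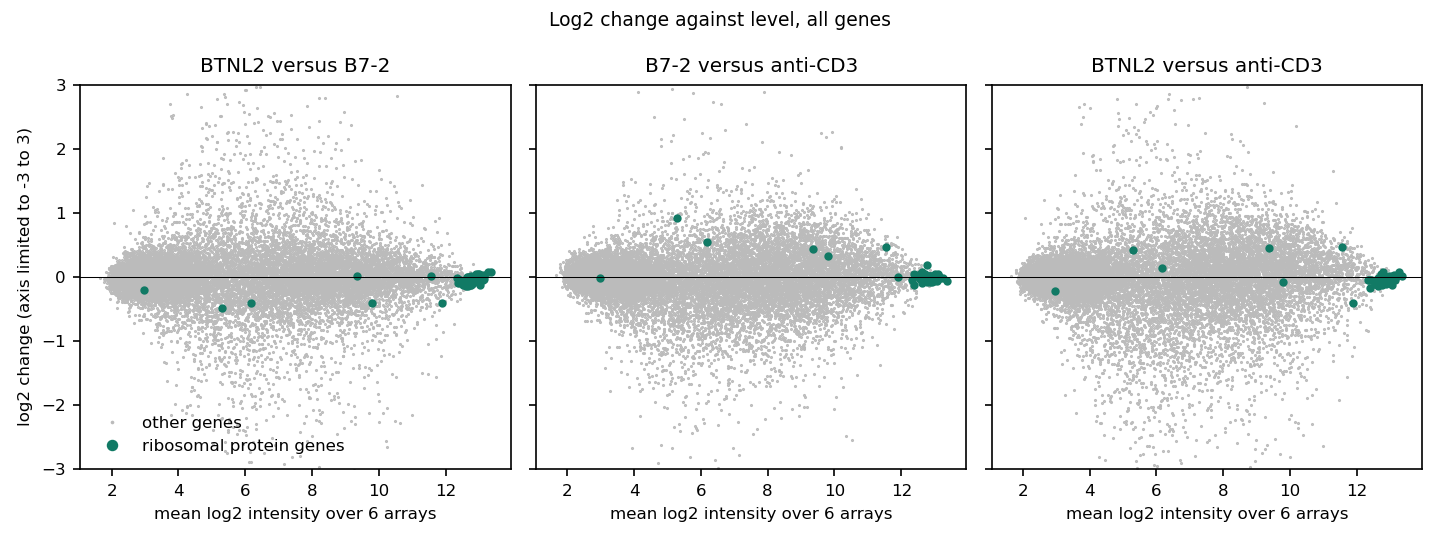
Log2 change against mean log2 intensity for all genes (grey) and the ribosomal protein genes (coloured) in the 3 comparisons. The bright ribosomal protein genes lie between -0.17 and 0.18, and 70, 11 and 84 genes lie beyond the axis limit of 3 in the panels.

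In the small subunit, Rps6, a substrate of the S6 kinases, read 10872 and 10607 in BTNL2 wells, 10243 and 10173 in B7-2 wells, and 10833 and 10567 in anti-CD3 wells. The B7-2 wells were slightly lower than the others, and no change passed the test (log2 change 0.07 ± 0.08 SE, adjusted p = 0.611, for BTNL2 over B7-2). Rpsa, which also occurs at the cell surface as a laminin receptor precursor, read 8740 and 8920 in BTNL2 wells, 9094 and 8969 in B7-2 wells, and 9109 and 9210 in anti-CD3 wells. Its ranges stood slightly apart between coatings, with a change of -0.03 ± 0.08 for BTNL2 over B7-2 (adjusted p = 0.838). Rps19, the gene most often mutated in human Diamond-Blackfan anaemia, read 6145 and 6073 in BTNL2 wells, 6682 and 6532 in B7-2 wells, and 6383 and 6404 in anti-CD3 wells. Its change of -0.11 ± 0.08 for BTNL2 over B7-2 did not pass (adjusted p = 0.409) but was called with the trended prior (adjusted p = 0.0317). The X-linked Rps4x read 6995 and 6668 in BTNL2 wells, 7168 and 7068 in B7-2 wells, and 7122 and 7355 in anti-CD3 wells, with changes between -0.08 and -0.02. Over the 23 bright genes of the small subunit the median change was -0.036, -0.016 and -0.055 in the 3 comparisons.

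In the stalk, which recruits the elongation factors to the large subunit, Rplp0 read 6970 and 6948 in BTNL2 wells, 7541 and 7253 in B7-2 wells, and 7341 and 7278 in anti-CD3 wells. Rplp1 read 5853 and 6048 in BTNL2 wells, 6591 and 6489 in B7-2 wells, and 6239 and 6238 in anti-CD3 wells. Both were lowest in the BTNL2 wells, with changes of -0.09 ± 0.08 and -0.14 ± 0.08 for BTNL2 over B7-2 (adjusted p = 0.536 and 0.320), and Rplp1 was called with the trended prior. Rplp2 read 8537 and 8609 in BTNL2 wells, 8595 and 8398 in B7-2 wells, and 8912 and 8547 in anti-CD3 wells, and its ranges overlapped between coatings.

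In the large subunit, Rpl11, which together with Rpl5 and the smallest ribosomal RNA binds Mdm2 and holds back the turnover of p53, read 8414 and 8457 in BTNL2 wells, 8876 and 8458 in B7-2 wells, and 8563 and 8828 in anti-CD3 wells. Its changes lay between -0.04 and -0.0050 and none passed (adjusted p = 0.812, 0.978 and 0.759). Rpl3, a core protein near the peptidyl transferase centre, read 6352 and 6603 in BTNL2 wells, 7165 and 6939 in B7-2 wells, and 7054 and 7152 in anti-CD3 wells, so the BTNL2 wells were the lowest, with a change of -0.12 ± 0.08 over B7-2 (adjusted p = 0.379). Rpl36a read 7004 and 7005 in BTNL2 wells, 7812 and 7264 in B7-2 wells, and 6483 and 6804 in anti-CD3 wells. Its change of 0.18 ± 0.09 for B7-2 over anti-CD3 was the highest among the bright genes and did not pass (adjusted p = 0.198), while the trended prior called it. Rpl13a read 5029 and 5149 in BTNL2 wells, 5344 and 5169 in B7-2 wells, and 5821 and 5614 in anti-CD3 wells, and its change of -0.17 ± 0.08 for BTNL2 over anti-CD3 (adjusted p = 0.198) was the lowest among them. Rpl10 read 8388 to 8528 over all 6 arrays, and its groups overlapped in every comparison. Over the 37 bright genes of the large subunit the median change was -0.039, -0.010 and -0.044.

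Paralogs made up 4 of the 6 called genes, and each is set here beside its core partner where that was measured. Rpl22 is an RNA-binding protein that mouse alpha-beta T cells need for their development, and Rpl22l1 is its close paralog, whose level Rpl22 is known to restrain in mouse cells. Rpl22l1 read 3101 and 3215 in BTNL2 wells, 4207 and 4156 in B7-2 wells, and 4273 and 4079 in anti-CD3 wells. The BTNL2 wells stood below both other coatings without overlap, at a log2 change of -0.41 ± 0.09 over B7-2 (1.32-fold, adjusted p = 0.0160) and -0.40 ± 0.09 over anti-CD3 (adjusted p = 0.0106), while B7-2 and anti-CD3 wells differed by 0.0023 ± 0.09 (adjusted p = 0.991). Rpl22 itself read 5185 and 5027 in BTNL2 wells, 5303 and 5602 in B7-2 wells, and 5188 and 5389 in anti-CD3 wells on its brightest probe set, with a change of -0.09 ± 0.09 for BTNL2 over B7-2 (adjusted p = 0.521). The Rpl22l1 call against B7-2 was lost without B7-2 replicate 1, without B7-2 replicate 2 or without BTNL2 replicate 1 (adjusted p = 0.0800, 0.0654 and 0.0771), and the call against anti-CD3 without anti-CD3 replicate 1 or without BTNL2 replicate 1.

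Rps27l, a paralog of Rps27 and a target of p53, read 3296 and 3389 in BTNL2 wells, 3258 and 3394 in B7-2 wells, and 2413 and 2415 in anti-CD3 wells. Both coatings with B7-2 stood above anti-CD3 alone, by a log2 change of 0.47 ± 0.08 in BTNL2 wells (adjusted p = 0.00515) and 0.46 ± 0.08 in B7-2 wells (adjusted p = 0.00771). They differed from each other by 0.0075 ± 0.08 (adjusted p = 0.967). The other probe sets of Rps27l rose too, by 0.51 and 0.45 in BTNL2 wells and by 0.59 and 0.42 in B7-2 wells. Its calls held with any of the arrays left out. Rpl7l1, a relative of Rpl7 that is found in assembly intermediates of the human large subunit, read 720 and 740 in BTNL2 wells, 722 and 722 in B7-2 wells, and 533 and 531 in anti-CD3 wells. On this probe set it was low in anti-CD3 wells alone, with rises of 0.46 ± 0.08 in BTNL2 wells (adjusted p = 0.00540) and 0.44 ± 0.08 in B7-2 wells (adjusted p = 0.00873) over anti-CD3. The call in B7-2 wells was lost without anti-CD3 replicate 1 (adjusted p = 0.0506). A further Rpl7l1 probe set read 658 and 742 in BTNL2 wells, 750 and 706 in B7-2 wells, and 515 and 568 in anti-CD3 wells. With each probe set tested it was called in B7-2 over anti-CD3 wells (0.43, adjusted p = 0.0354) and not in BTNL2 over anti-CD3 wells (0.37, adjusted p = 0.0502). The last one read 465 and 509 in BTNL2 wells, 609 and 563 in B7-2 wells, and 517 and 486 in anti-CD3 wells, and was not called. Averaging its probe sets gave a change of 0.26 in BTNL2 over anti-CD3 wells (adjusted p = 0.0524). Rpl7 read 6864 and 7112 in BTNL2 wells, 7330 and 7573 in B7-2 wells, and 7160 and 7611 in anti-CD3 wells, with no change passing the test.

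Rpl39l, known mainly from testis, was dim. It read 71.5 and 64.0 in BTNL2 wells, 84.0 and 97.0 in B7-2 wells, and 62.2 and 61.3 in anti-CD3 wells, so the B7-2 wells were the highest, at a log2 change of 0.55 ± 0.11 over anti-CD3 (adjusted p = 0.0108) and with BTNL2 wells lower than B7-2 wells at a log2 change of -0.42 ± 0.11 (adjusted p = 0.0354). The call over anti-CD3 was lost without anti-CD3 replicate 1, anti-CD3 replicate 2 or B7-2 replicate 2, and the call between BTNL2 and B7-2 wells without B7-2 replicate 2, BTNL2 replicate 1 or BTNL2 replicate 2, with adjusted p up to 0.165. Its core partner Rpl39 read 6854 and 7048 in BTNL2 wells, 7092 and 6847 in B7-2 wells, and 7495 and 7108 in anti-CD3 wells, without a change that passed. Rpl3l, known from striated muscle, was at 6.82 to 9.37 on all arrays, near background, and no change passed.

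**Figure D3:**
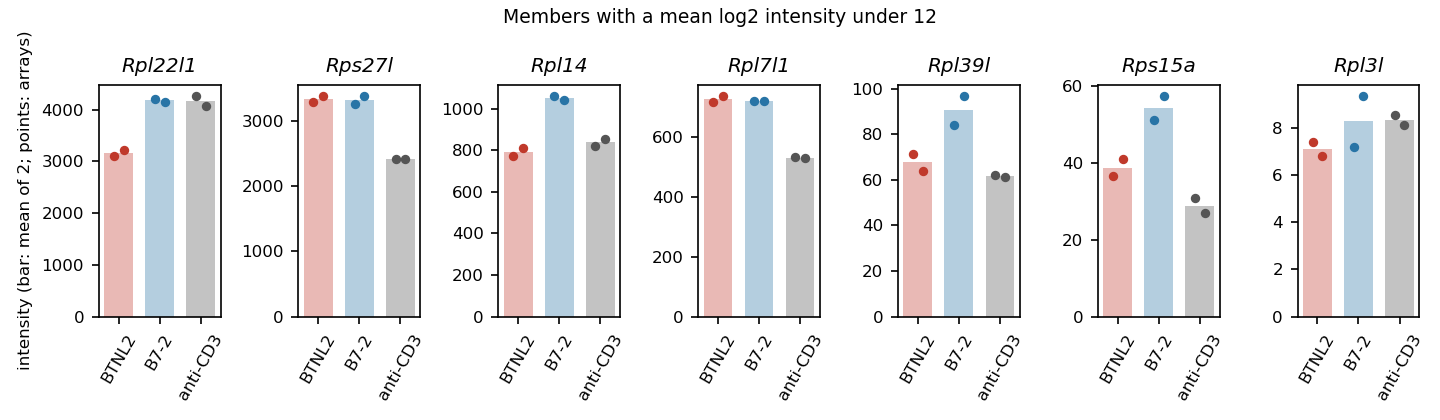
Intensity of the 7 dimmer ribosomal protein genes in BTNL2, B7-2 and anti-CD3 wells, 1 panel per gene with its own axis from 0; bars are means of 2 arrays and points are the arrays. Rpl22l1 is low in BTNL2 wells alone (3101 and 3215), Rps27l and Rpl7l1 are low in anti-CD3 wells alone on the plotted probe sets, and Rpl14, Rpl39l and Rps15a peak in B7-2 wells.

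The remaining called genes belong to the core ribosome, but their symbols reached the members through dim probe sets. Rpl14 of the large subunit read 771 and 810 in BTNL2 wells, 1063 and 1040 in B7-2 wells, and 823 and 855 in anti-CD3 wells. The B7-2 wells stood above both others, at -0.41 ± 0.09 for BTNL2 over B7-2 (adjusted p = 0.0155) and 0.33 ± 0.09 for B7-2 over anti-CD3 (adjusted p = 0.0320). The call for B7-2 over anti-CD3 was lost without any of the 4 arrays compared (adjusted p of 0.0943 to 0.150), and the call for BTNL2 over B7-2 without B7-2 replicate 1, B7-2 replicate 2 or BTNL2 replicate 1. Rps15a of the small subunit read 36.5 and 40.9 in BTNL2 wells, 51.0 and 57.5 in B7-2 wells, and 30.8 and 26.9 in anti-CD3 wells, with changes of -0.49 ± 0.12 for BTNL2 over B7-2 (adjusted p = 0.0259), 0.91 ± 0.12 for B7-2 over anti-CD3 (adjusted p = 0.00193) and 0.42 ± 0.12 for BTNL2 over anti-CD3 (adjusted p = 0.0305). Its call for BTNL2 over B7-2 was lost without B7-2 replicate 2 or BTNL2 replicate 1, and that for BTNL2 over anti-CD3 without anti-CD3 replicate 2 or BTNL2 replicate 2. Brighter probe sets for both proteins exist on the array but carry a pseudogene's symbol beside or in place of the gene's, so the rule left them out. The probe sets annotated Rpl14-ps1 and Rpl14 read from 6987 to 9370 and changed by at most 0.08 in size (lowest adjusted p = 0.644), and the bright one annotated Rps15a-ps6 read from 5331 to 5699 and changed by at most 0.07. The calls for both genes therefore concern only their dimmer probe sets. The one of Rpl14 still lay at or above the 92.24th percentile of probe sets on every array, and the one of Rps15a at or above the 56.44th.

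Further probe sets of the members were tested one by one. Besides the probe set that stood for each gene, 34 genes had 63 further ones. Of these, 30 bright ones, of 22 genes, included 0 called in any comparison when each probe set was tested, whereas 13.8%, 17.3% and 22.2% of all 45037 probe sets were called. Of the 33 dimmer ones, of 24 genes, 10 were lower and 0 higher in BTNL2 than in B7-2 wells (all probe sets: 7.04% lower and 6.77% higher), 13 were higher and 1 lower in B7-2 than in anti-CD3 wells (8.78% higher and 8.56% lower), and 8 were higher and 4 lower in BTNL2 than in anti-CD3 wells (11.5% higher and 10.7% lower). Their median log2 changes were -0.27, 0.23 and -0.0052. Of the 33, 4 belong to the paralogs Rps27l and Rpl7l1, which gave 3 of the 13 and 2 of the 8 higher calls over anti-CD3 wells. Called shares differed with brightness. With 1 probe set per gene, 4.38% of genes under a mean log2 of 4 and 37.5% of those at 6 to 8 were called for BTNL2 over B7-2. The shares were 4.45% and 42.4% for B7-2 over anti-CD3, and 6% and 50.5% for BTNL2 over anti-CD3. No share was matched in brightness to the 33 probe sets. Which transcripts these dim probe sets measure was not tested.

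Rpl22 is an example. A dim probe set of Rpl22 read 91.7 and 84.6 in BTNL2 wells, 227 and 192 in B7-2 wells, and 263 and 258 in anti-CD3 wells. The BTNL2 wells were lower, at a log2 change of -1.25 ± 0.11 over B7-2 wells (2.37-fold, adjusted p = 0.000492) and -1.57 ± 0.11 over anti-CD3 wells (2.96-fold, adjusted p = 0.000120), whereas the bright Rpl22 probe set stayed within 5027 to 5602 on all arrays. A dim Rpl23 probe set read 311 and 301 in BTNL2 wells, 565 and 549 in B7-2 wells, and 568 and 621 in anti-CD3 wells, and was lower in BTNL2 than in B7-2 wells at a log2 change of -0.87 ± 0.10 (adjusted p = 0.00126). A dim Rpl13 probe set was highest in anti-CD3 wells instead, at 173 and 186 in BTNL2 wells, 241 and 220 in B7-2 wells and 443 and 389 in anti-CD3 wells.

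Others were highest in B7-2 wells. A dim Rps13 probe set read 154 and 183 in BTNL2 wells, 228 and 245 in B7-2 wells, and 109 and 114 in anti-CD3 wells, a rise of 1.08 ± 0.12 in B7-2 over anti-CD3 wells (adjusted p = 0.00123) and a change of -0.49 ± 0.12 in BTNL2 over B7-2 wells (adjusted p = 0.0298). A dim Rpl41 probe set read 705 and 688 in BTNL2 wells, 955 and 908 in B7-2 wells, and 434 and 525 in anti-CD3 wells, while the bright Rpl41 probe set read 10035 and 10230, 9630 and 9552, and 9727 and 9613 in the same order. A dim Rps10 probe set read 59.8 and 76.2 in BTNL2 wells, 129 and 105 in B7-2 wells, and 46.3 and 68.0 in anti-CD3 wells, with the duplicates farther apart. The dim Rpl11 probe set read 119 and 107 in BTNL2 wells, 172 and 179 in B7-2 wells, and 94.9 and 129 in anti-CD3 wells, against the flat bright one given above. One alternative used only probe sets without a suffix letter, leaving out every probe set marked a, s or x. Under it Rpl11 takes this dim value, since its bright probe set is marked a. Its change for B7-2 over anti-CD3 then becomes 0.67 (adjusted p = 0.0153).

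**Figure D4:**
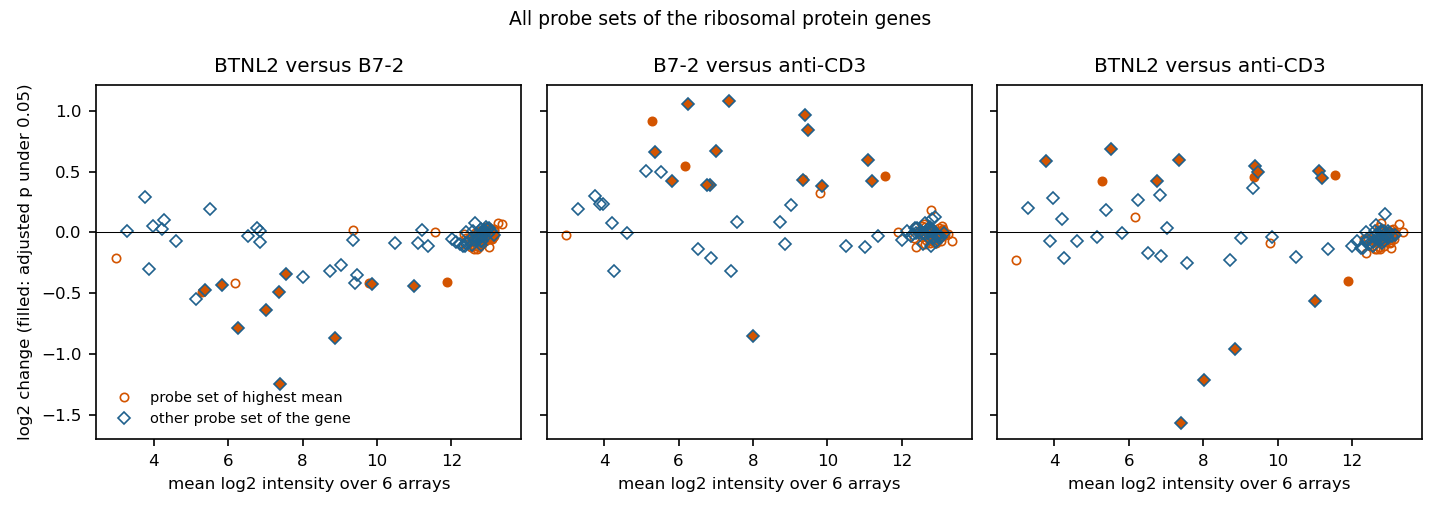
Log2 change against mean log2 intensity for the 133 probe sets of the 70 genes in the 3 comparisons, each probe set tested and those called filled. Every called probe set lies below a mean log2 of 12, and the changes there reach -1.57 and 1.08.

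The genes around ribosome production were described from lists chosen with earlier results of these data known. Of 19 measured assembly and export factors of the subunits, 15 were higher and 2 lower in B7-2 than in anti-CD3 wells, with a median log2 change of 0.67, against a median of -0.0048 and 24.5% called over all genes. Heatr3, which carries Rpl5 into the nucleus, read 405 and 430 in BTNL2 wells, 402 and 418 in B7-2 wells, and 171 and 162 in anti-CD3 wells, a rise of 1.30 ± 0.09 in B7-2 over anti-CD3 wells (adjusted p = 0.000293). Grwd1, a chaperone of Rpl3, read 627 and 658 in BTNL2 wells, 698 and 734 in B7-2 wells, and 364 and 342 in anti-CD3 wells, a rise of 1.02 ± 0.09. Both genes were low in anti-CD3 wells alone, and the same held for Pno1, Ltv1, Bysl and Lsg1 of subunit maturation. The exceptions were Riok1, a kinase of late small subunit maturation, and Nop53, which were lower in B7-2 than in anti-CD3 wells, at log2 changes of -0.56 and -0.39. In BTNL2 over anti-CD3 wells 13 of the 19 were higher and 2 lower (median 0.73), and in BTNL2 over B7-2 wells only Nop53 was called, lower (median of the list -0.046). Over all genes 30.4% were called for BTNL2 over anti-CD3 and 20.4% for BTNL2 over B7-2.

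RNA polymerase I genes and Myc, the factor that drives many ribosome genes, followed a similar count. Of 15 measured, 11 were higher and 1 lower in B7-2 than in anti-CD3 wells (median 0.44), 7 higher and 1 lower in BTNL2 than in anti-CD3 wells (median 0.28), and 1 higher and 2 lower in BTNL2 than in B7-2 wells (median -0.14). Of all genes 24.5%, 30.4% and 20.4% were called in these comparisons. Polr1b, a catalytic subunit of the polymerase, read 172 and 185 in BTNL2 wells, 208 and 220 in B7-2 wells, and 85.1 and 80.2 in anti-CD3 wells. Myc read 95.3 and 109 in BTNL2 wells, 178 and 236 in B7-2 wells, and 133 and 92.4 in anti-CD3 wells, so it was highest in B7-2 wells, with -1.003 ± 0.20 for BTNL2 over B7-2 (adjusted p = 0.0135) and 0.89 ± 0.20 for B7-2 over anti-CD3 (adjusted p = 0.0188). Ubtf, which opens ribosomal RNA genes to the polymerase, was higher in BTNL2 than in B7-2 wells by 0.32 ± 0.08 (adjusted p = 0.0352).

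Of 73 mitochondrial ribosomal protein genes, which serve the separate ribosomes of mitochondria, 25 were higher and 0 lower in B7-2 than in anti-CD3 wells (median 0.21), 25 higher and 1 lower in BTNL2 than in anti-CD3 wells (median 0.23), and 1 higher and 3 lower in BTNL2 than in B7-2 wells (median -0.022). The whole gene set had 11.2% higher and 13.3% lower for B7-2 over anti-CD3, 14.2% and 16.2% for BTNL2 over anti-CD3, and 9.52% and 10.8% for BTNL2 over B7-2. Mrpl1, with a rise of 0.78 ± 0.09 in B7-2 over anti-CD3 wells, was the highest of them. Of 18 other TOP genes of translation, such as the elongation and initiation factors, 1 (Eif2s3x) was higher in B7-2 than in anti-CD3 wells, 1 (Eif3f) was lower in BTNL2 than in anti-CD3 wells at a log2 change of -0.42 ± 0.08, and 0 were called in BTNL2 over B7-2 wells, with medians of 0.0044, -0.064 and -0.086 in that order. Of 3 ribosome components outside the name rule only Fau was measured, with changes of -0.10, -0.05 and -0.15 in the 3 comparisons, none called. Differences between the lists were not tested.

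Among mTORC1 and TOP control genes, 3 of 12 were lower and 0 higher in BTNL2 than in B7-2 wells, and 3 were higher and 2 lower in each comparison with anti-CD3 wells. The shares called over all genes were 20.4% for BTNL2 over B7-2, 24.5% for B7-2 over anti-CD3 and 30.4% for BTNL2 over anti-CD3. Eif4ebp1, an inhibitor of cap-dependent translation that mTORC1 inactivates, read 172 and 232 in BTNL2 wells, 703 and 757 in B7-2 wells, and 595 and 558 in anti-CD3 wells. It was low in BTNL2 wells alone, with a change over B7-2 wells of -1.87 ± 0.15 (3.66-fold, adjusted p = 0.000215). Mtor was lower in BTNL2 than in B7-2 wells at a log2 change of -0.39 ± 0.09 and higher in B7-2 than in anti-CD3 wells by 0.32 ± 0.09, and Larp1 and Larp4 were higher in both coatings with B7-2 than in anti-CD3 wells. Of 6 genes around p53, Cdkn1a, which stops the cell cycle, was higher in B7-2 than in anti-CD3 wells by 0.68 ± 0.09 and Mdm2 by 0.34 ± 0.09, whereas Pmaip1, which promotes cell death, was lower at a log2 change of -0.61 ± 0.14. In BTNL2 over anti-CD3 wells Mdm2, Mdm4, Cdkn1a and Ccng1 were higher and Pmaip1 lower, and in BTNL2 over B7-2 wells Mdm4 alone was called, higher by 0.41 ± 0.11.

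**Figure D5:**
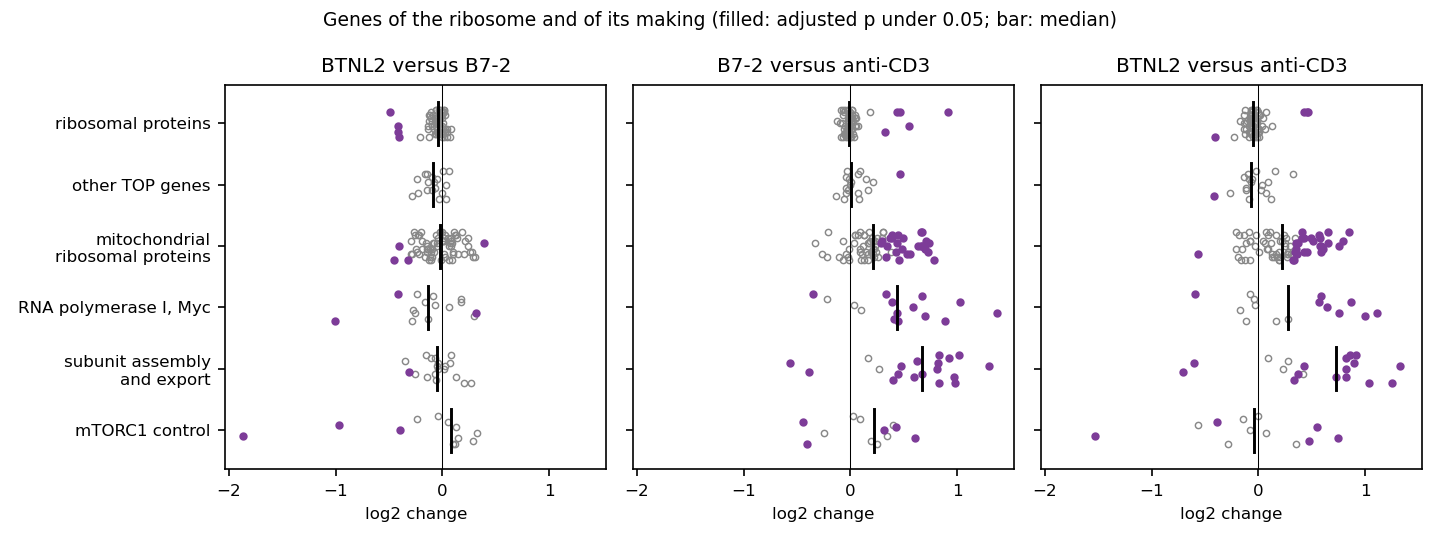
Log2 change of each gene in the lists around the ribosome, 1 panel per comparison and 1 row per list, with called genes filled and the median as a bar. Most assembly factors and RNA polymerase I genes lie to the right of 0 in the comparisons with anti-CD3 wells (medians 0.67 and 0.44 for B7-2), and the medians of the cytosolic ribosomal protein genes lie near 0.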

How the data were processed

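The authors deposited 1 linear intensity per probe set and array, which the submitters' processing notes attribute to RMA. Its version was not given in the sources used here. RMA brings the arrays to a shared scale, so a change in nearly all transcripts at once can be lost. RNA was amplified from 50 ng per sample, per the labels. The deposited intensities were log2 transformed here.

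Of 45141 probe sets (104 of them controls), 28898 had 1 gene symbol, 551 several and 15588 none in the platform annotation, and 28689 symbols were updated by Entrez identifier with the GRCm38.p6 gene table. The test was limma's (version 3.58.1, R 4.3.3), using lmFit and then eBayes with its default prior on the 6 arrays together (3 residual and 4.02 prior degrees of freedom). It was two-sided, and genes were called at a p under 0.05 after Benjamini-Hochberg adjustment over 17097 genes (45037 probe sets where each was tested). The smallest folds called were 1.226, 1.211 and 1.203. The number of arrays limits the precision.

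Ribosomal protein genes named by rule were the 8 largest called rises and falls of each comparison and, in every comparison, the paralog pairs, Rpsa, Rps6, Rps19, the stalk genes and Rpl11; Rpl12, Rpl13a, Rpl41 and the genes of the trended prior and of the dim probe sets were named after their values were seen. The members, lists and rule were chosen with earlier results of these data known. Alternatives changed the scaling, the probe sets per gene, the variance prior (trended or robust), the arrays fitted, the use of genes dimmer than the 40th percentile, the replicate block, a 1.5-fold minimum and each array in turn; testing each probe set was added after seeing the data. The procedure was also run on simulated data with independent noise and far fewer changed genes than were called here. No result rests on that run.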

Additional observations from a re-analysis of the deposited data

How the results depend on the processing

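The number of arrays, 2 per coating, limits the precision. In BTNL2 over B7-2 wells the 4 lower genes became 0 with a 1.5-fold minimum and 10 with the trended prior (13.6% of all genes lower). With probe sets without a suffix letter 11 were lower (31 genes, 10.1% of all lower). With any compared array left out the lower genes were fewer. In B7-2 over anti-CD3 wells the 5 higher genes became 1 with a 1.5-fold minimum, 9 with the mean of all probe sets (11.6% higher overall), 11 without a suffix (10.7%), and 2 to 4 with an array left out (2 without anti-CD3 replicate 1, 3 without anti-CD3 replicate 2 or B7-2 replicate 2), and the 0 lower became 1 with the trended prior (16.1%) and 1 with the mean (12.2%). In BTNL2 over anti-CD3 wells the 3 higher became 0 with the 1.5-fold minimum, 5 without a suffix (13.6%) and 2 to 3 with an array left out, and the 1 lower became 0 with the 1.5-fold minimum, 9 with the trended prior (18.1%), 4 with the mean (15.5%) and 0 to 1 with an array left out (0 without anti-CD3 replicate 1 or BTNL2 replicate 1). The share of all genes called also fell in every fit with an array left out, from 20.4%, 24.5% and 30.4% in the 3 comparisons. A 1.5-fold minimum can only lower a count, for all genes as for the members. The cause was not tested.

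The medians were -0.056, -0.091 and -0.014 for BTNL2 over B7-2 with the mean of all probe sets, without a suffix and after a further quantile normalization. They were 0.0047, 0.047 and 0.0077 for B7-2 over anti-CD3, with 0.0085 after centring, and -0.031, -0.016 and -0.0062 for BTNL2 over anti-CD3. The change of Rpl11 for B7-2 over anti-CD3 turned to 0.67 without a suffix. Of the named genes' alternatives, 743 kept their side of the threshold, 27 lost the call, 8 gained it and 1 reversed. Direction was compared only where the main test or the alternative called the gene. Uncalled changes near 0 may therefore have turned sign among the 743.

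Same-numbered arrays' deviations correlated at -0.0272, -0.0642 and -0.000967, so no shared deviation was seen. Such correlations cannot tell whether same-numbered cultures were paired. With the replicate block the counts were 3 lower (Rpl39l lost) for BTNL2 over B7-2 and 4 higher (Rpl14 lost, adjusted p = 0.0572) for B7-2 over anti-CD3. For BTNL2 over anti-CD3 they were 3 higher and 1 lower. Of all genes the block called 18.5%, 22% and 28.2% in this order of comparisons, against 20.4%, 24.5% and 30.4% without it.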

Other observations

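Some ribosomal protein transcripts are read by probe sets that the platform annotation gives to several genes, and these lie outside the 70. They are named here after their values were seen, with each probe set tested by limma. The bright probe set annotated Rpl5 and Dipk1a read 9231 and 8860 in BTNL2 wells, 9192 and 9099 in B7-2 wells, and 9516 and 9378 in anti-CD3 wells, and Rpl36al, which the name rule leaves out, read 5392 to 5828, both without a called change. A dimmer probe set of Rpl5 and Dipk1a read 389 and 356 in BTNL2 wells, 550 and 533 in B7-2 wells, and 309 and 303 in anti-CD3 wells (0.82 ± 0.10 for B7-2 over anti-CD3, adjusted p = 0.00182).

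Ribosomal protein genes host small nucleolar RNAs in their introns, which guide the modification of ribosomal RNA. The probe set annotated Rpl12 and Snora65 read 452 and 500 in BTNL2 wells, 826 and 872 in B7-2 wells, and 408 and 407 in anti-CD3 wells. It was lower in BTNL2 than in B7-2 wells at a log2 change of -0.84 ± 0.10 (adjusted p = 0.00165) and higher in B7-2 than in anti-CD3 wells by 1.06 ± 0.10 (adjusted p = 0.000837), whereas bright Rpl12 read 6050 to 6895. The probe set annotated Snord15b and Rps3 read 1015 and 1028 in BTNL2 wells, 1459 and 1491 in B7-2 wells, and 1287 and 1259 in anti-CD3 wells, lower in BTNL2 than in B7-2 wells at a log2 change of -0.53 ± 0.09 (adjusted p = 0.00857).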
